A study of Rattus norvegicus with 2 samples.

Results

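The Notch genes described here are the 4 receptors Notch1, Notch2, Notch3 and Notch4, the ligands Jag1, Jag2 and Dll4, and the Hey target genes Hey1, Hey2 and Heyl. They were chosen by gene symbol, and all 10 were found among the 37203 genes of the deposited count table. RNA-seq was performed on the cardiac outflow tract (OFT) of Sprague-Dawley rat embryos at E13.5. There was 1 homozygous Snx17-/- (HO) library and 1 wild-type (WT) library, each from the OFTs of 10 embryos, pooled before RNA isolation. The knockout is a global one, made with CRISPR/Cas9 and not limited to a cell type, and HO embryos came from crosses of heterozygous rats. The tables head their columns with another embryonic stage than the labels, and the stage of the labels was used. With 1 pool per genotype there is no replicate, so the spread between embryos or pools was not measured and no p-value is given.

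Notch signaling passes between touching cells. A Jagged or Delta-like ligand on the surface of a cell binds a Notch receptor on its neighbour, the receptor is cut by an ADAM protease and by gamma-secretase, and its intracellular part enters the nucleus. There it joins the DNA-binding protein RBPJ and a Mastermind coactivator to switch on genes of the Hes and Hey families. In the heart the pathway is known for its roles in the endocardium and cushions, in smooth muscle of the great arteries and in the second heart field, and mutations of JAG1 or NOTCH2 in humans cause Alagille syndrome, in which outflow defects are common. SNX17 is a sorting nexin that returns membrane proteins from endosomes to the cell surface, and in zebrafish a Jagged ligand is among its known cargoes. The counts measure RNA and give no value for protein at the cell surface.

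The HO library held 9528615 counted reads and the WT library 9321811. Snx17 itself had 994 counts in HO and 1365 in WT, a fold of 0.721 (95% interval 0.663 to 0.783), so the reads of the targeted gene were fewer in the library labelled HO but still present. The count covers the whole gene and not the deleted part alone. A fold here is the HO count over the WT count after TMM scaling of the library sizes, and its interval is an exact Clopper-Pearson interval that covers counting error only. A gene was called where this interval lay wholly above 1.5-fold or below 1/1.5, the fold threshold of the study, among 15426 genes with at least 20 counts over both libraries. The study set this threshold on the fold itself, together with a limit on the false discovery rate. Its calls and those made here can therefore differ. Among these genes, 0.771% were called higher and 1.18% lower in HO. An interval wholly above 1 was found for 20.3% of them and wholly below 1 for 17.0%. A fold above 1.5, whatever its interval, was found for 6.27% and a fold below 1/1.5 for 7.51%.

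None of the 10 Notch genes was called at 1.5-fold in either direction. The intervals of 5 of them, Notch1, Notch2, Notch3, Hey1 and Heyl, lay wholly below 1, none lay wholly above 1, and those of Notch4, Jag1, Jag2, Dll4 and Hey2 included 1. Hey1 was the exception to the fold limit, as its fold of 0.634 was below 1/1.5 while its interval reached above it. The median log2 fold of the 10 genes was −0.16, beside 0.01 over all genes tested. The width of an interval follows the number of reads, so the shares were also read at like depth. Of 4304 genes with 1000 to 10000 reads over both libraries, 26.2% had an interval wholly below 1, as had 3 of the 5 Notch genes in that range. Of 6560 genes with 150 to 1000 reads, 14.4% did, as had 2 of the other 5 Notch genes.

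**Figure D1:**
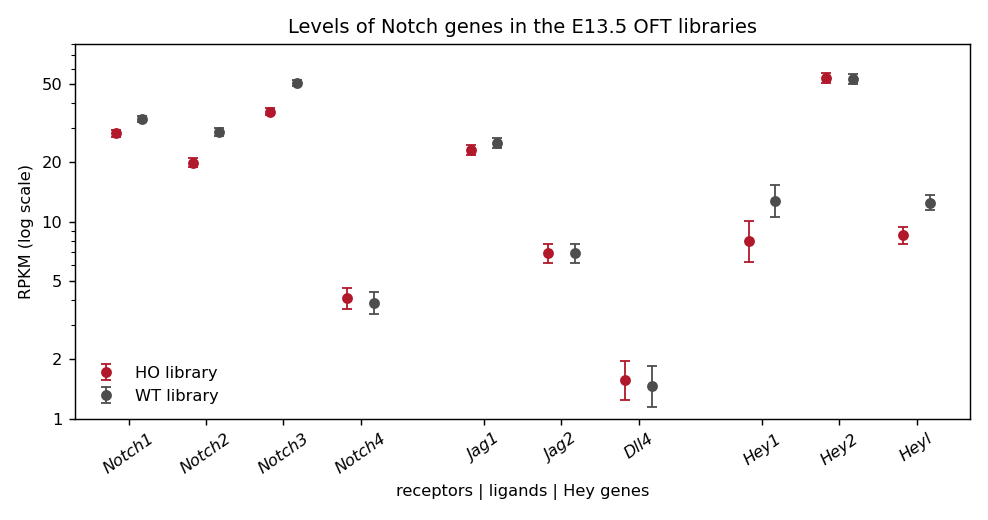
RPKM (log scale) of the 10 Notch genes in the HO library (red) and the WT library (grey), 1 library each, with bars for the exact 95% Poisson interval of the count. The HO value lies below the WT value without overlap of the bars for Notch1, Notch2, Notch3, Hey1 and Heyl.

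Notch3, the receptor of vascular smooth muscle and its precursors, was the most abundant receptor per gene length in both libraries. It had 2525 counts in HO and 3460 in WT, or 36.2 RPKM in HO and 50.7 RPKM in WT. The HO library was lower, at a fold of 0.722 (interval 0.686 to 0.760) and a log2 fold of −0.47. Notch2, a receptor of neural crest derivatives, smooth muscle and mesenchyme, had 1509 counts in HO and 2118 in WT, or 19.9 and 28.6 RPKM in these libraries. Its log2 fold of −0.50 was the lowest of the 4 receptors, with a fold of 0.705 and an interval of 0.660 to 0.753. Among 2112 tested genes with 0.5 to 2 times its reads, 1.52% had a lower fold than Notch2, and among 1063 genes with reads like those of Notch3, 2.26% had a lower fold than Notch3. These positions describe the 2 libraries and are no test of genotype.

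Notch1, the main receptor of the endocardium and arterial endothelium, had 2522 counts in HO and 2927 in WT. The level per gene length was 28.1 RPKM in HO and 33.4 RPKM in WT. Its fold was 0.853 (interval 0.808 to 0.900), a smaller difference than for Notch2 and Notch3, and 12.3% of 1274 genes of like depth had a lower fold. Notch4, a receptor restricted mainly to endothelial cells, had 260 counts in HO and 240 in WT, or 4.10 and 3.86 RPKM in these libraries. Its fold was 1.07 with an interval of 0.896 to 1.28, so a difference in either direction of less than about this size could not be resolved at its depth. The summed RPKM of the 4 receptors was 88.4 in HO and 117 in WT.

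The receptors also differed among themselves in how they compared between the libraries. The ratio of the reads of 2 genes within a library does not depend on the scaling of library sizes, and 12 such pairs were compared, 6 of receptors, 3 of ligands and 3 of Hey genes. Notch3 had 9.71 reads for each read of Notch4 in HO and 14.4 in WT, a ratio of 0.674 between the libraries (exact 95% interval 0.559 to 0.812). Notch2 had 5.80 reads for each read of Notch4 in HO and 8.82 in WT, with a ratio of 0.658 (interval 0.543 to 0.797). Notch1 was higher relative to Notch2 in HO, with 1.67 reads for each read of Notch2 in HO and 1.38 in WT, a ratio of 1.21 (interval 1.11 to 1.32). The pair of Notch2 and Notch3 was the only receptor pair whose interval included 1, at a ratio of 0.976 (interval 0.897 to 1.06). As shares of the summed RPKM of the receptors, Notch3 held 41.0% in HO and 43.5% in WT, Notch1 31.8% and 28.6%, Notch2 22.6% and 24.5%, and Notch4 4.63% and 3.31% in the same order of libraries.

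The intervals of all 3 ligands included 1 with TMM scaling. Jag1, the ligand of the cushions, neural crest and arterial smooth muscle, had 1235 counts in HO and 1307 in WT, or 23.2 and 25.1 RPKM in these libraries, and made up 73.2% of the summed RPKM of the 3 ligands in HO and 74.9% in WT. Its fold was 0.935, and the interval of 0.864 to 1.01 only just included 1. With upper-quartile factors in place of TMM, the log2 interval of Jag1 ran from −0.25 to −0.03 and no longer included 0. With total counts or the ratio of the RPKM values its upper end also lay below 0, by less than 0.01. Jag2, a second Jagged ligand, had 324 counts in HO and 318 in WT, a fold of 1.01 (interval 0.861 to 1.18). Dll4, the Delta-like ligand of arterial endothelium, had 80 counts in HO and 73 in WT, a fold of 1.08 with a wide interval of 0.780 to 1.51. At 1.57 RPKM in HO and 1.47 RPKM in WT it was the least abundant of the 10 genes per length. All 3 pairs of ligands had intervals of their read ratios that included 1.

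The Hey genes encode transcriptional repressors of the basic helix-loop-helix class and are direct targets of RBPJ. Upstream sequence of Hey2 and Heyl is shown because these paralogs compared differently between the libraries, and that of Hes1, the classic target of the pathway, stands beside them. The sequences are the 250 bases before the annotated start in RefSeq (build GRCr8, while the reads were aligned to Rnor 6.0), read 5′ to 3′ on the strand of the gene. Capitals mark GTGGGAA, the core motif bound by RBPJ, searched on both strands. Hey2 lies on the plus strand (chr1:28640850-28641099), Heyl on the plus strand (chr5:140793021-140793270) and Hes1 on the minus strand (chr11:84213046-84213295).
Hey2: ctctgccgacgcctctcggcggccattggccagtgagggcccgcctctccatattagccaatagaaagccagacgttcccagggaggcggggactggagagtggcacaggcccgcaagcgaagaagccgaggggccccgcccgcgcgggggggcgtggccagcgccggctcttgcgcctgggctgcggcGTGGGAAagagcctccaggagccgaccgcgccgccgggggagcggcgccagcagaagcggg
Heyl: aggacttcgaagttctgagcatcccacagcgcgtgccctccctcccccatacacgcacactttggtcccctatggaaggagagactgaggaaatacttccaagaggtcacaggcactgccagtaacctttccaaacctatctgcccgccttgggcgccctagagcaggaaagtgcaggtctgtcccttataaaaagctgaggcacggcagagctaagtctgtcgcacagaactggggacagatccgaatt
Hes1: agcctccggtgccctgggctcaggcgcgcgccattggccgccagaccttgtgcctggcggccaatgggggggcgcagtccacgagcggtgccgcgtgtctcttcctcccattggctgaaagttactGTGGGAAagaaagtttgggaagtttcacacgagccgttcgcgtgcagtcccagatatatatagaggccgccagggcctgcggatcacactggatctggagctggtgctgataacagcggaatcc
The motif begins 61 bases before the start in Hey2 and 124 bases before it in Hes1, in both on the strand of the gene, and these letters were not found in the stretch shown for Heyl. Of 33469 RefSeq promoters of the same length, 5.27% hold the motif. The table holds promoters of 8 of the 10 Notch genes, all but Dll4 and Hey1, and Hey2 was the only one of the 8 with a match. Outside the 10 genes, Hes5, with 0 counts in both libraries, held 2 matches, and Nrarp, another target of the pathway, held none. A match is a run of letters and no measurement of binding. Whether a match bears on the fold of a gene was not tested.

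Hey2, the Hey gene of the compact ventricular myocardium and of arterial smooth muscle, was the most abundant of the 10 genes per length in both libraries. It had 1236 counts in HO and 1202 in WT, or 53.6 and 53.3 RPKM in these libraries. The values nearly coincided, with a fold of 1.02 and an interval of 0.939 to 1.10. Heyl, the Hey gene of vascular smooth muscle and a known target of Notch3 signaling, had 378 counts in HO and 543 in WT, or 8.52 RPKM in HO and 12.5 RPKM in WT. Its fold was 0.689 (interval 0.602 to 0.787), and 2.04% of 5236 genes of like depth had a lower fold. Hey1, the Hey gene of the atria and endocardium, had 73 counts in HO and 114 in WT, or 8.005 RPKM in HO and 12.8 RPKM in WT. The log2 fold of Hey1, −0.66, was the lowest of the 10 genes, but its 187 reads left a wide interval of −1.10 to −0.22, and 5.94% of 3891 genes of like depth had a lower fold.

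The ratios among the Hey genes also differed between the libraries. Hey2 had 3.27 reads for each read of Heyl in HO and 2.21 in WT, a ratio of 1.48 between the libraries (exact interval 1.26 to 1.73). Hey1 had 0.0591 reads for each read of Hey2 in HO and 0.0948 in WT, a ratio of 0.623 (interval 0.453 to 0.853), while the interval for Hey1 and Heyl, at 0.920, ran from 0.657 to 1.28 and included 1. Hey2 made up 76.4% of the summed RPKM of the Hey genes in HO and 67.8% in WT. In all, the interval excluded 1 for 5 of the 6 receptor pairs, none of the 3 ligand pairs and 2 of the 3 Hey pairs. These pairs reuse the same 10 genes, and no share over pairs of other genes was computed to set beside the counts. Counting intervals of single genes with 1000 to 10000 reads excluded 1 for 29.6% of genes above it and 26.2% below it, so the counts are given as a description only.

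**Figure D2:**
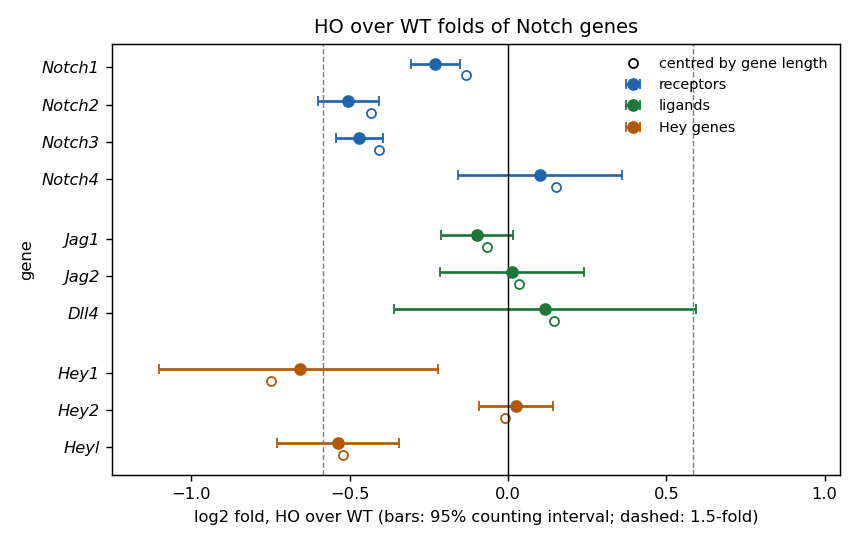
Log2 fold of HO over WT for the 10 Notch genes, with 1 library per genotype. Filled points carry exact 95% counting intervals, dashed lines mark 1.5-fold, and open points give the log2 fold centred by gene length (−0.13 for Notch1). No interval lies wholly beyond 1.5-fold, and those of Notch1, Notch2, Notch3, Hey1 and Heyl lie wholly below 0.

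In the order of levels per length, 6 of the 10 genes held the same rank in both libraries. Hey2, Notch3 and Notch1 came first and Jag2, Notch4 and Dll4 last, while Jag1 and Notch2 exchanged places, as did Heyl and Hey1. In HO, the Poisson intervals of neighbours in this order overlapped only for Heyl with Hey1 and Hey1 with Jag2. In WT they overlapped for Hey2 with Notch3 and for Hey1 with Heyl. Notch3 thus lay below Hey2 in HO, at 36.2 RPKM beside 53.6 RPKM, while in WT the intervals of these genes overlapped. The place of Hey1 rests on its gene length of 957 bases in the deposited table, the shortest of the 10. Without division by length it had 7.66 CPM (counts scaled to the library total only) in HO and 12.2 CPM in WT and ranked last in HO and ninth in WT.

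Gene length was also related to the folds of the whole table. With the genes tested split into 5 groups of like size by length, the median log2 fold was 0.09 in the group of the shortest genes and −0.06 in that of the longest, from 4780 bases upward. All 4 receptors and all 3 ligands fall in the group of the longest genes, with lengths from 4929 bases for Jag2 to 9407 bases for Notch1. After centring of the folds on this trend, Notch1 had a log2 fold of −0.13 (interval −0.21 to −0.06), nearer to 0 than the −0.23 without it. Notch2 then had −0.43 (interval −0.53 to −0.34), Notch3 −0.41 (interval −0.48 to −0.33), Heyl −0.52 and Hey1 −0.75. With this centring Notch1, Notch2, Notch3, Hey1 and Heyl again had intervals wholly below 0, and the median of the 10 genes was −0.10.

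**Figure D3:**
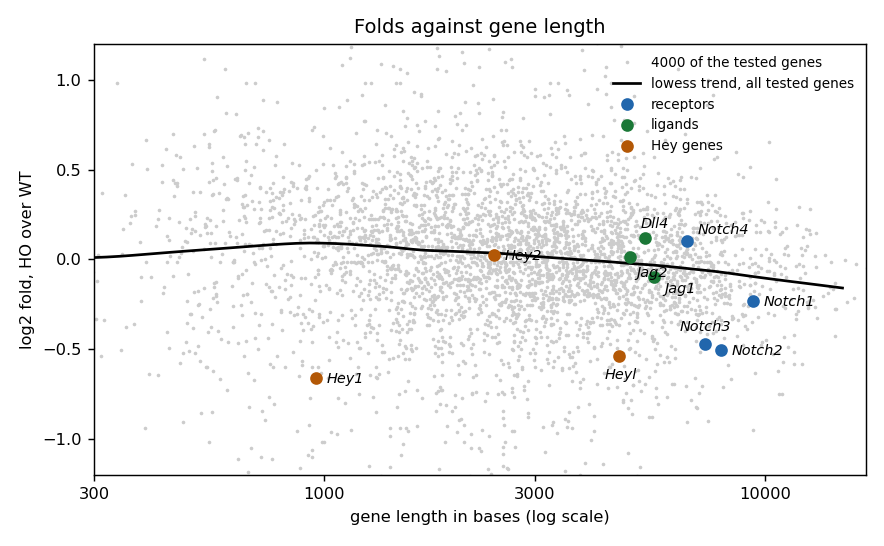
Log2 fold of HO over WT against gene length (log scale), with the Notch genes as large points, a drawn subset of 4000 tested genes in grey and the lowess trend of all tested genes as a line. Points beyond 1.2 on the log2 scale lie outside the axes. All but Notch4, Jag2 and Dll4 lie below the trend line, Jag1 and Hey2 with intervals that reach across it.

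Genes of the pathway other than these 10 were listed by role. Of 59 such genes, 58 were in the count table and 52 had at least 20 counts. None was called at 1.5-fold, 4 had an interval wholly above 1 and 13 wholly below 1, and their median log2 fold was −0.04. Over all genes tested the shares were 20.3% above and 17.0% below 1. Of 24 pathway genes with 150 to 1000 reads 7 lay below 1, beside 14.4% of all genes of that depth, and of 21 with 1000 to 10000 reads 4 did, beside 26.2%. The nuclear partner Rbpj had 716 counts in HO and 718 in WT, a log2 fold of −0.02 (interval −0.17 to 0.13), and the Mastermind coactivators Maml1 and Maml2 had log2 folds of −0.10 and 0.04 with intervals that included 0. Of the cleavage machinery, Furin, the convertase that matures Notch receptors, had 4898 counts in HO and 5163 in WT. Its log2 fold was −0.09, with an interval of −0.15 to −0.03. The protease Adam10 had 1642 counts in HO and 1443 in WT, a log2 fold of 0.17 with an interval of 0.07 to 0.27. Of the 9 cleavage genes these were the only 2 with an interval that excluded 0. Ncstn, a subunit of gamma-secretase, had a log2 fold of −0.08 with an interval that included 0. Genes named beyond the 2 with most reads in each role were chosen after their values were seen.

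Lfng, the glycosyltransferase Lunatic fringe, which modifies Notch receptors and alters their choice of ligand, had 93 counts in HO and 149 in WT. Its fold was 0.618 (interval 0.471 to 0.806). Of the 52 tested pathway genes 4 had a fold below 1/1.5, Lfng, Maml3, Dtx1 and Neurl1b, beside 7.51% of all genes tested. Maml3, the remaining Mastermind gene, had 115 counts in HO and 173 in WT, a fold of 0.658 (interval 0.515 to 0.838). Dtx1 and Neurl1b, genes of ubiquitin ligases, had no more than 30 counts in a library, and their intervals included 1. Of the other fringe genes, Rfng had 461 counts in HO and 520 in WT. Its log2 interval of −0.37 to −0.005 lay only just below 0, and with the size factors of DESeq2 in place of TMM it included 0. Mfng had a log2 fold of 0.10 with an interval that included 0. Pofut1 and Poglut1, which add the first sugars to Notch, had log2 folds of 0.10 and 0.13, with intervals that included 0. Among genes of endocytosis and ubiquitination, Mib2 and Dtx3 had log2 folds of 0.02 and −0.10, while Dtx4 had 113 counts in HO and 166 in WT and a fold of 0.674 (interval 0.526 to 0.861). Neurl1 was higher in HO, at a fold of 1.30 (interval 1.01 to 1.67), but with upper-quartile factors in place of TMM its interval included 1. Of the 11 tested genes of this role, 1 had an interval wholly above 1 and 2 wholly below 1. The shares over all genes tested were 20.3% and 17.0%.

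Hes1 had 261 counts in HO and 227 in WT, a log2 fold of 0.19 (interval −0.08 to 0.45), and Hes6 had a log2 fold of 0.06. Hes2, Hes3 and Hes5 had 0 counts in both libraries, which allows up to 3 counts in each. Nrarp, a feedback target of the pathway, had 158 counts in HO and 150 in WT, a log2 fold of 0.06 (interval −0.27 to 0.39). Of 9 other genes known to be under Notch control, Nrarp included, 4 had an interval wholly below 1, and none had one wholly above 1. The share below 1 was 17.0% of all genes tested, 14.4% with 150 to 1000 reads and 26.2% with 1000 to 10000 reads. The intervals of Snai2, Gja4, Nrg1 and Myc, with log2 folds of 0.20, 0.11, −0.17 and −0.05, included 0. Efnb2, ephrin-B2, a ligand of arterial endothelium and smooth muscle, had 804 counts in HO and 1173 in WT, a fold of 0.678 (interval 0.619 to 0.743). Snai1, a transcription factor of endocardial cushion formation, had 422 counts in HO and 526 in WT (log2 fold −0.33), Pdgfrb, a receptor of mural cells, had a log2 fold of −0.27, and Unc5b, a netrin receptor, of −0.19. Dll1 and Dlk1, further ligands of the Delta and Delta-like non-canonical groups, had 79 and 377 counts in HO, against 63 and 318 counts in WT. The interval of Dll1 included 1, while that of Dlk1 lay just above it, at 1.01 to 1.37. After centring by gene length the log2 interval of Dlk1 ran from −0.05 to 0.39 and included 0.

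**Figure D4:**
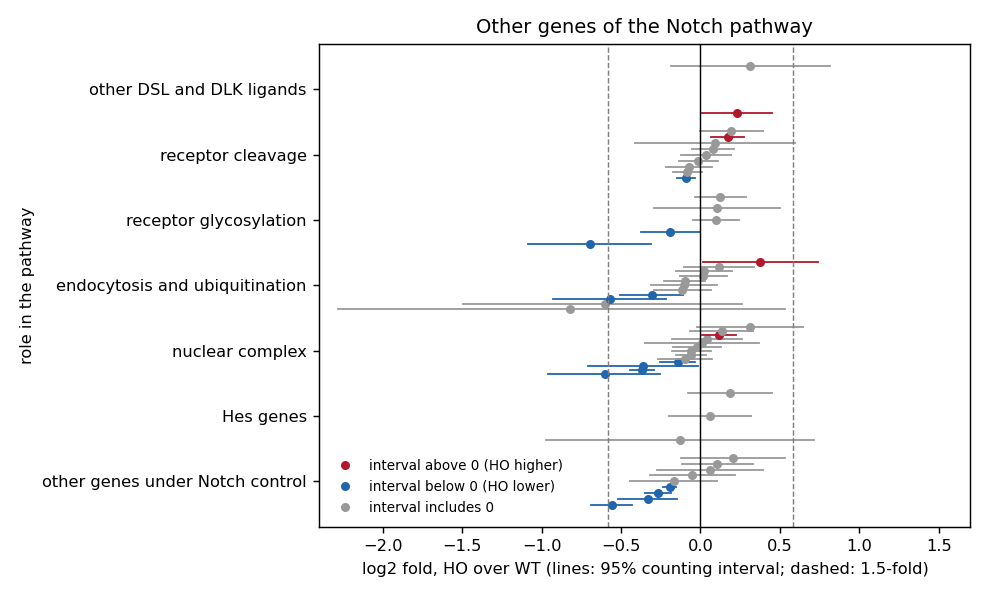
Log2 fold of HO over WT for the 52 tested genes of the Notch pathway other than the 10 described first, by role, with lines for exact 95% counting intervals and dashed lines at 1.5-fold. Blue points (13 genes) have an interval wholly below 0 and red points (4 genes) wholly above 0, and no line lies wholly beyond 1.5-fold.

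In pooled tissue, fewer cells of a type and less RNA per cell cannot be told apart, so marker levels of the cell types that carry Notch genes are given beside them. For comparison with the marker counts, 20.3% of all genes tested had an interval wholly above 1 and 17.0% wholly below 1. Among genes with 1000 to 10000 reads these shares were 29.6% and 26.2%. Of 12 endothelial and endocardial markers, 7 had an interval wholly above 1 and 1 wholly below 1, with a median log2 fold of 0.18 and a summed RPKM of 344 in HO and 314 in WT. Notch1 (log2 fold −0.23) and Hey1 lay below the median of these markers, and Notch4 and Dll4, at 0.10 and 0.12, lay near it. Of 8 smooth muscle markers, 2 had an interval wholly above 1 and 3 wholly below 1, with a median of −0.09 and a range of −0.50 for Smtn to 0.33 for Acta2, while Notch3 and Heyl had −0.47 and −0.54. Their summed RPKM was 1812 in HO and 1699 in WT, and without Acta2, left out after its values were seen, it was 957 in HO and 1013 in WT. Of 7 cushion mesenchyme markers, 4 had an interval wholly below 1 and 2 wholly above 1, and their summed RPKM was 634 in HO and 641 in WT. Without Vcan, the highest of them and also left out after its values were seen, the sum was 415 in HO and 460 in WT. The 6 epicardial markers were the lowest, with 5 intervals wholly below 1, a median of −0.67 and a summed RPKM of 94.7 in HO and 156 in WT. Of 10 cardiomyocyte markers, 8 had an interval wholly above 1 and 1, Ttn, wholly below 1, with a summed RPKM of 13006 in HO and 10865 in WT. The summed RPKM of macrophage markers was 22.03 in HO and 11.4 in WT. Neural crest and glial markers had a median of −0.33 over 4 tested genes, with Foxd3 and Tfap2b at 0 in both libraries, and of the endodermal markers Foxa2, Shh and Nkx2-1 were at 0 in both. Of 6 tested neuronal markers 3, and of 6 tested erythroid markers 2, had an interval wholly below 1, and 2 erythroid markers had one wholly above 1. The part of any cell type in the values of the Notch genes was not tested.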

How the data were processed

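RNA of pooled E13.5 OFTs was sequenced from 1 HO and 1 WT library as single-end Ion Proton reads. After cleaning, the reads were aligned with MapSplice to Rnor 6.0, and the authors deposited raw counts per gene. How strand was used, which annotation served and what counted the reads is not given in the sources used here. RPKM values that the authors deposited are these counts scaled by gene length and library total, and gene lengths were recovered from both.

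The totals were 9528615 counts in HO and 9321811 in WT. TMM factors came from edgeR 4.0.16 in R 4.3.3, and DESeq2 1.42.0 gave alternative size factors. Neither could estimate a spread with 1 library per genotype, and EBSeq, the study's tool, was not run. Intervals (95%), lowess centring (fraction 0.3) and motif counts were computed in Python 3.11.15 with scipy 1.17.1 and statsmodels 0.14.6. The fold rule was run on simulated counts with Poisson counting error and no spread between pools. This checks the code and cannot show how the rule performs where pools differ. Reads carried no molecular identifiers. The intervals cover counting error only, as each genotype has 1 library, and those of the 12 pairs were not adjusted for their number.

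All 10 Notch genes and Snx17 are named, with every pathway gene that was called and the 2 with most reads in each role, except that the values of 1 role's pair are not reported here. The rule also named single marker genes, which are given here by list. The members and lists were chosen with earlier results of these data known. Spen, a listed pathway gene, was not analysed here. Alternatives were other scalings, centring, count minimums, intervals, thresholds and summed copies.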

Additional observations from a re-analysis of the deposited data

How the results depend on the processing

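No Notch gene and no other pathway gene was called at 1.5-fold under other scalings or either centring. None was called with no count minimum or one of 100, a 99% interval, a 2-fold threshold or summed copies either. Of these, the 99% interval and the 2-fold threshold are stricter and could not add a call. The count minimums and summed copies left the values of all 10 Notch genes as they were, so they are no check on them. With the fold alone, whatever its interval, 1 Notch gene (Hey1) and 4 other pathway genes were past 1.5-fold, all lower in HO. With an interval beyond 1-fold 5 and 17 were. Of all genes tested, 7.51% had a fold below 1/1.5, and 20.3% and 17.0% had intervals wholly above and wholly below 1. The interval beyond 1 held for 5 or 6 Notch genes under each setting, the sixth being Jag1, and for 10 to 16 lower and 1 to 5 higher pathway genes. Centring by length gave −0.13 for Notch1, outside its interval without it, and the cause was not tested. Of all genes, 119 were called higher and 182 lower. These counts were 75 and 110 with at least 100 counts, 73 and 117 with 99% intervals, 42 and 57 at 2-fold, 967 and 1158 with the fold alone, and 3126 and 2624 with an interval beyond 1, and 77 were higher with copies summed. Higher calls were 39.5% of all calls with the 1.5-fold rule and 54.4% with an interval beyond 1. These settings are by construction stricter or looser, or join genes. No paired analysis was possible because each genotype has 1 library, and no library could be left out. Depth limits Dll4 and Hey1 most, with 153 and 187 reads over both libraries. By CPM 6 genes held the same rank in both libraries, as by RPKM, but not the same 6, and Hey2, at rank 1 by RPKM, was at rank 4 in HO and rank 5 in WT.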
